A study of Mus musculus with 12 samples.

Results

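The results concern 32 endothelial genes, a list of receptors, junction proteins, surface glycoproteins, capillary proteins, secreted proteins and transcription factors that mark the cells lining blood vessels. For each gene the brightest of its probe sets, by the mean over the 12 arrays, was read. All 32 were among the 18193 genes that a probe set named singly, and 32 of 32 passed the filter on low values that left 15237 genes for testing. RNA of C57BL6 mice, either wild type (WT) or Sgpp2-/- (KO) and fed normal or high-fat food, was hybridised to 12 Affymetrix mouse arrays. The 4 groups held 3 arrays each: WT on the normal diet, KO on the normal diet, WT on the high-fat diet and KO on the high-fat diet. The deleted gene, Sgpp2, encodes an enzyme that dephosphorylates the lipid messenger sphingosine-1-phosphate. The labels named no tissue, gave no age and did not say whether a group's arrays stood for different animals; the spread behind every p-value is that between these samples and may be technical. Pancreatic islets are named in the title of the series.

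Pancreatic islets are supplied by a dense net of capillaries whose endothelial cells are pierced by fenestrae, through which hormones reach the blood. Islet cells secrete vascular endothelial growth factor A, which binds the receptors encoded by Kdr and Flt1 and maintains these fenestrated capillaries. At the front of a sprouting vessel, tip cells make Dll4 and Esm1 in response to this factor, and Dll4 signals through Notch receptors to the neighbouring cells. Sphingosine-1-phosphate itself acts on endothelial cells through G protein-coupled receptors such as S1pr1.

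The deposited values were log2 intensities, on which a difference of 1 is a doubling. The islet hormone genes Ins2 and Gcg had means of 14.57 and 14.40 over the 12 arrays. The fat cell gene Adipoq was at the lower end of the range on all arrays, at 3.46 to 3.66. The vessel genes spread widely in signal above the filter at a log2 value of 5: the fenestral gene Plvap ranged from 11.33 to 12.06 and the receptor gene Kdr from 11.55 to 12.05, while Vwf, Tal1 and Cldn5 lay not far above the filter, with means of 6.07, 5.86 and 6.12. The targeted gene Sgpp2 lay between 11.00 and 11.17 on KO arrays and between 11.46 and 11.63 on WT arrays. Its probe set thus still read far above the filter in KO, and the part of the transcript it reads was not looked up. On the first principal component of all genes, which held 27.1% of the variance, WT high-fat array 2 lay at 6.5, among the KO arrays at 2.4 to 26.2 and apart from the other WT arrays at -21.1 to -7.5. KO high-fat array 3 lay at the far end, at 26.2. The calls of Esm1, Pecam1, Kdr, Vegfc and Aqp7 and the members' genotype and interaction medians are given below without these arrays as well.

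Averaged over both diets, 3 of the 32 endothelial genes passed the test for genotype (limma, Benjamini-Hochberg adjusted p under 0.05 over all 15237 genes). Esm1, a secreted proteoglycan of tip cells, rose in KO to 159% of the WT level. Pecam1, the platelet endothelial adhesion molecule at the contacts between endothelial cells, fell to 70.9%, and Kdr, the main signalling receptor for vascular endothelial growth factor A, fell to 85.2%. Over all genes the same test called 6.32%, with 3.3% higher and 3.02% lower, so the 1 member that rose and the 2 that fell were not far from the background. The direction was uneven: 26 of 32 members were lower and 6 higher in KO by any margin, where 40.5% of all genes were higher. The median difference over the members was -0.12 on the log2 scale, beside -0.04 over all genes tested. Without WT normal array 2 the members' median was -0.19, with 31 lower.

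Promoter sequence was read for 15 of the 32 genes, with 20 windows of the 250 bases before a transcript start (RefSeq, assembly GRCm38.p6). Esm1 is shown whole because it is the member that rose. Its window, chr13:113209409-113209658 on the plus strand, holds none of the sequence cores that were searched on both strands: the ETS cores CAGGAAG and CCGGAAG, the SOX cores ACAAAG and ACAATG, the GATA core AGATAA and the KLF core CCACACCC.

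Esm1 promoter: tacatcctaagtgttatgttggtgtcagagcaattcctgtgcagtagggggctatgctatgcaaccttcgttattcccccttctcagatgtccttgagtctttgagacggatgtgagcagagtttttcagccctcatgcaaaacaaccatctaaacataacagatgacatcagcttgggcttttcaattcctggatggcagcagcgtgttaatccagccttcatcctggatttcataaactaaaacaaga

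The core CAGGAAG, a form bound by ETS factors such as Erg, lay in 7 of the 20 member windows (35.0%), beside 10.8% of 32851 windows of all genes. The windows belonged to 6 genes, Cd34, Egfl7, Emcn, Erg, Rasip1 and Robo4, and none of these 6 genes passed the genotype test. The core is in capitals in 5 of these stretches, written 5' to 3' on the strand of the gene, where CTTCCTG is the core read on the opposite strand.

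Robo4, chr9:37401912-37401938, plus strand: gagggccaggCAGGAAGcatccgtttc
Emcn, chr3:137340894-137340920, plus strand: agaagggtctCTTCCTGttcaaatccc
Cd34, chr1:194938669-194938695, plus strand: tacacagtggCTTCCTGccacacttaa
Rasip1, chr7:45627436-45627462, plus strand: cctccccgctCTTCCTGccgggtttcc
Erg, chr16:95459372-95459398, minus strand: atagaaacctCTTCCTGccattggctg

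The other cores were found in fewer member windows. CCGGAAG lay in 0.0% of member windows and 6.91% of all windows, ACAAAG in 15.0% and 16.5%, ACAATG in 5.0% and 10.7%, AGATAA in 10.0% and 9.99%, and CCACACCC in 10.0% and 3.20%. The Kdr window held none of these cores. It did hold the GC box GGGCGG, searched only after the sequences had been seen, which lay in 30.0% of member windows and 32.7% of all windows. The Kdr box that starts 45 bases before the transcript start is shown in capitals because Kdr is the receptor that fell.

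Kdr, chr5:75978485-75978510, minus strand: ggtaatgaccCCGCCCccattcgcta

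The 9 receptor genes differed between genotypes by -0.44 to 0.02 as the mean of both diets, with 8 lower and 1 higher in KO, and 1 of them passed the test. Kdr measured 11.97, 11.91 and 12.05 on WT arrays 1, 2 and 3 of the normal diet and 11.55, 11.74 and 11.65 on the KO arrays. On the high-fat diet it measured 11.82, 11.90 and 11.68 in WT and 11.77, 11.64 and 11.61 in KO. All 3 KO arrays of the normal diet were therefore below all 3 WT arrays, while on the high-fat diet KO array 1 lay above WT array 3. Kdr fell by 0.23 over both diets (SE 0.06, limma adjusted p = 0.0448). The difference was -0.33 for normal feeding (SE 0.08, limma adjusted p = 0.0817) and -0.13 for high-fat feeding (SE 0.08, limma adjusted p = 0.514), and the test of the change between diets did not pass (0.20, SE 0.12, limma adjusted p = 0.990). Permuting genotype within each diet gave an exact two-sided p of 0.01 for Kdr over 400 arrangements. Among the members this permutation was run only on those that limma had called on the same values, without adjustment, so it is no separate support. The Kdr call was lost when each array was centred on its median (-0.13, limma adjusted p = 0.222) and without the WT high-fat array 2 and KO high-fat array 3 (-0.19, limma adjusted p = 0.0809). With the array number as a block the limma adjusted p was 0.0823, and with same-numbered KO arrays as a random block it was 0.0941. The call was also lost with no filter on low values (limma adjusted p = 0.0529). When single arrays were left out, the Kdr call held in 2 of 12 fits, those that dropped array 2 of the high-fat WT group (limma adjusted p = 0.0455) or array 1 of the high-fat KO group (0.0467), and elsewhere the limma adjusted p reached at most 0.103.

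Tie1, the partner of the angiopoietin receptor Tek, gave 8.83, 8.31 and 8.66 in WT and 8.06, 8.29 and 8.03 in KO on the normal diet. High-fat WT arrays gave 8.77, 8.30 and 8.86, and high-fat KO arrays 8.41, 8.52 and 7.78. The normal-diet groups did not overlap, though WT array 2 came close to KO array 2, and the high-fat groups did. The difference over both diets was -0.44 (SE 0.15) and missed the threshold (limma adjusted p = 0.0879). Ptprb, a phosphatase that acts on Tek and on VE-cadherin, differed by -0.23 (SE 0.07, limma adjusted p = 0.0681). Eng, a co-receptor for ligands of the TGF-β family, differed by -0.24 (SE 0.12) and Ramp2, a partner of the adrenomedullin receptor, by -0.14 (SE 0.12). The remaining receptors lay near 0: Tek at -0.04, Flt1, the second receptor for vascular endothelial growth factor A, at -0.04, the apelin receptor gene Aplnr at -0.01 and Robo4 at 0.02. A dimmer Aplnr probe set differed by -0.35 (SE 0.15, limma adjusted p = 0.141).

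**Figure D1:**
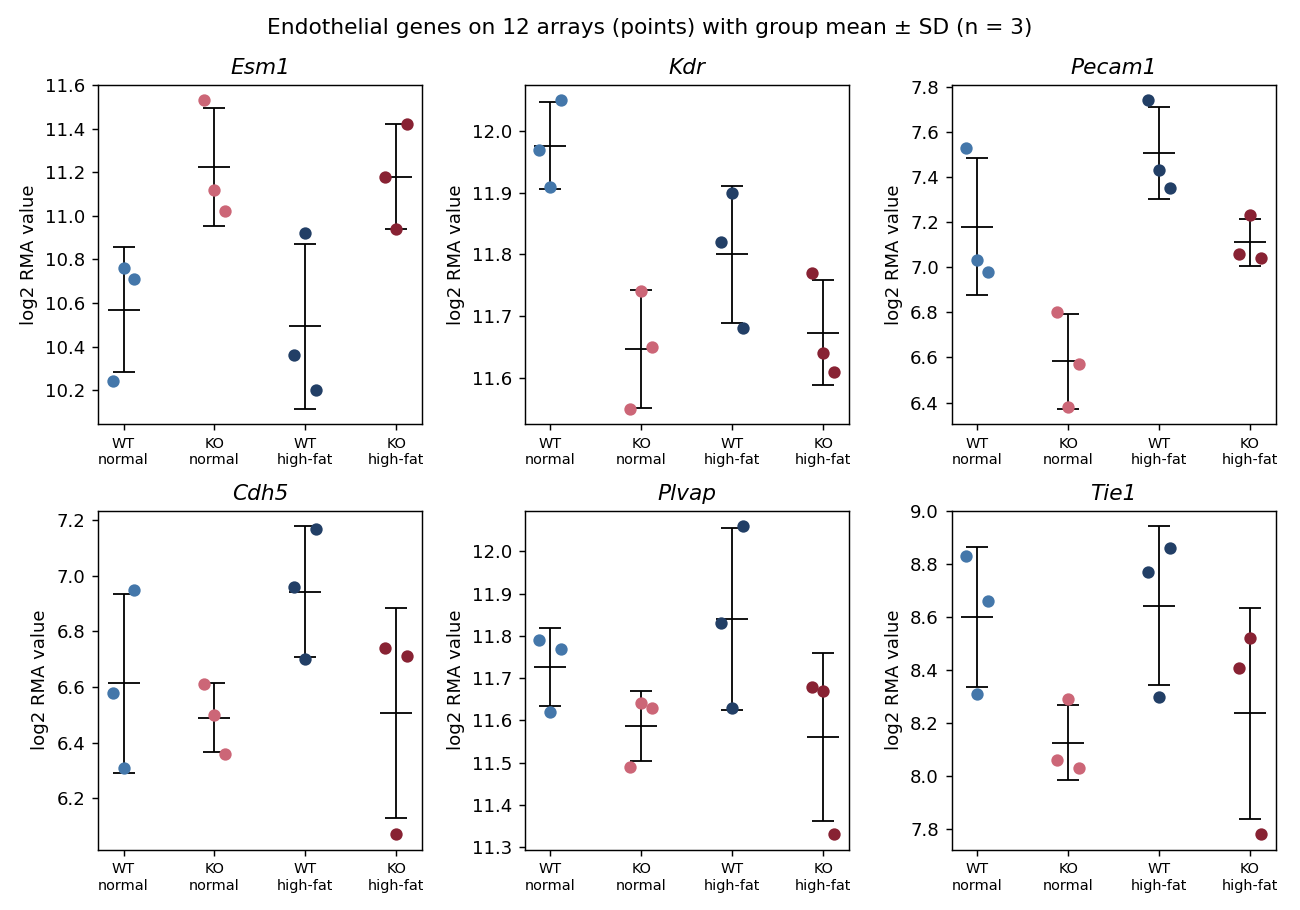
Log2 RMA values of Esm1, Kdr, Pecam1, Cdh5, Plvap and Tie1 on the vertical axis, for the 4 groups on the horizontal axis; points are arrays and bars the group mean ± SD (n = 3). All 6 KO points of Esm1, at 10.94 to 11.53, sit above all 6 WT points, at 10.20 to 10.92, and the KO points of Pecam1 sit below the WT points within each diet.

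Among the 5 junction and adhesion genes, Pecam1 passed the test and 4 of the 5 were lower in KO over both diets. Pecam1 measured 7.53, 7.03 and 6.98 in WT and 6.80, 6.38 and 6.57 in KO on the normal diet. In the high-fat groups the values were 7.74, 7.43 and 7.35 in WT and 7.06, 7.23 and 7.04 in KO. KO arrays lay below WT arrays within each diet with no overlap, although the high-fat KO arrays reached above the lowest WT arrays of the normal diet. Pecam1 fell by 0.50 over both diets (SE 0.11, limma adjusted p = 0.0318), with -0.59 for normal feeding (SE 0.16, limma adjusted p = 0.0939) and -0.40 for high-fat feeding (SE 0.16, limma adjusted p = 0.333). The exact two-sided permutation of genotype within diets gave p = 0.005, the smallest that 400 arrangements allow. Any gene whose arrays do not overlap in 1 direction within both diets gets this p, and 7.43% of all genes were such. The permutation therefore adds nothing to the lack of overlap. Without the WT high-fat array 2 and KO high-fat array 3 the difference was again -0.50 and its limma adjusted p 0.0515. The Pecam1 call held with the array number as a block (limma adjusted p = 0.0286) and was lost with same-numbered KO arrays as a random block (-0.50, limma adjusted p = 0.0657). It held in 5 of 12 fits without 1 array and was lost without WT normal array 1, KO normal arrays 2 or 3, WT high-fat arrays 1 or 3 and KO high-fat arrays 1 or 3, with a limma adjusted p of 0.0533 to 0.0783.

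Pecam1 is also present on platelets and leukocytes. Macrophage markers were lower in KO for 9 of 11 genes over both diets, where 40.5% of all genes were higher. Their median was -0.23 beside -0.04 for all genes. None passed the test and 3 had an unadjusted p under 0.05, where 28.6% of all genes did. Their mean level per array ranged from 9.10 to 9.30 in WT and 9.02 to 9.11 in KO on the normal diet, and from 9.02 to 9.32 in WT and 8.73 to 9.14 in KO on the high-fat diet. Of 7 T and B cell genes tested, 3 were higher and 4 lower in KO over both diets, with a median of -0.06 and none past the test. The platelet gene Gp5, which encodes glycoprotein V, fell by 0.54 (SE 0.06, limma adjusted p = 0.0034), while 4 of the 6 platelet genes tested were higher by some margin. The part of these cells in the Pecam1 difference was not tested, and in a bulk sample fewer cells of a type and less RNA per cell cannot be told apart.

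Cdh5, which encodes the VE-cadherin of endothelial junctions, gave 6.58, 6.31 and 6.95 in WT and 6.61, 6.50 and 6.36 in KO on the normal diet. The high-fat arrays gave 6.96, 6.70 and 7.17 in WT and 6.74, 6.07 and 6.71 in KO. The groups overlapped on both diets, and the difference of -0.28 over both (SE 0.14) did not pass (limma adjusted p = 0.22). Icam2, a ligand of leukocyte integrins, differed by -0.17 (SE 0.09), Esam, another adhesion molecule of endothelial junctions, by -0.10 (SE 0.06) and the tight junction gene Cldn5 by 0.03 (SE 0.07).

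Plvap, which forms the diaphragms of fenestrae, gave 11.79, 11.62 and 11.77 in WT and 11.49, 11.64 and 11.63 in KO on the normal diet. With high-fat feeding WT gave 11.83, 11.63 and 12.06 and KO 11.68, 11.67 and 11.33. The groups overlapped on both diets. The difference was -0.14 on the normal diet (SE 0.12), -0.28 on the high-fat diet (SE 0.12, limma adjusted p = 0.367) and -0.21 over both (SE 0.09, limma adjusted p = 0.144). Nos3, the endothelial nitric oxide synthase gene, gave 7.49, 7.37 and 7.49 in WT and 7.06, 7.23 and 7.03 in KO on the normal diet, without overlap. The high-fat arrays overlapped, with 7.50, 7.16 and 7.26 in WT and 7.24, 7.27 and 6.95 in KO. Nos3 differed by -0.35 on the normal diet (SE 0.11, limma adjusted p = 0.13) and by -0.25 over both (SE 0.08, limma adjusted p = 0.0788). The other 2 capillary genes were also lower without passing: Gpihbp1, which carries lipoprotein lipase to the capillary lumen, by -0.24 (SE 0.12) and Rasip1, needed for vessel lumen formation, by -0.08 (SE 0.07).

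The 4 secreted products split, with Esm1 at one end and Egfl7 at the other. Esm1 measured 10.24, 10.76 and 10.71 in WT and 11.53, 11.12 and 11.02 in KO on the normal diet. High-fat WT arrays measured 10.36, 10.92 and 10.20, and high-fat KO arrays 11.18, 10.94 and 11.42. Each of the 6 KO arrays was above each of the 6 WT arrays, narrowly so between KO high-fat array 2 and WT high-fat array 2. Esm1 rose by 0.67 over both diets (SE 0.15, limma adjusted p = 0.031), and the exact two-sided permutation within diets gave p = 0.005. As for Pecam1, the lack of overlap within both diets fixes this permutation p. The 2 diets gave nearly the same difference, 0.66 for normal feeding (SE 0.21, limma adjusted p = 0.13) and 0.68 for high-fat feeding (SE 0.21, limma adjusted p = 0.23). Leaving out WT high-fat array 2 and KO high-fat array 3 gave 0.72 (limma adjusted p = 0.0206). With the array number as a block the limma adjusted p for Esm1 was 0.0603, and with same-numbered KO arrays as a random block 0.0628. The call held in 4 of 12 fits without 1 array and was lost without WT normal arrays 1 or 3, any of the KO normal arrays, WT high-fat arrays 1 or 3 and KO high-fat array 3, with a limma adjusted p of 0.0531 to 0.0773 and a difference of 0.59 to 0.72.

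Egfl7, a matrix-bound protein that vessels secrete, gave 8.93, 8.72 and 8.95 in WT and 8.60, 8.55 and 8.55 in KO on the normal diet. On the high-fat diet it gave 8.84, 8.70 and 8.96 in WT and 8.71, 8.71 and 8.46 in KO. The normal-diet groups did not overlap, and the high-fat groups overlapped only through WT array 2. Its difference over both diets was -0.25 (SE 0.07, limma adjusted p = 0.0565). An Egfl7 probe set of nearly the same signal (mean 8.47 beside 8.72) differed by -0.04 (SE 0.09). The dimmer ones differed by -0.19 (SE 0.09) and -0.11 (SE 0.10), and none of these further probe sets was called. Mmrn2, a matrix protein of vessels, differed by -0.10 (SE 0.06) and Vwf, the von Willebrand factor of larger vessels and platelets, by 0.01 (SE 0.19). The dimmer probe sets of Mmrn2 differed by 0.15 (SE 0.07), -0.38 (SE 0.13) and 0.05 (SE 0.07), none of them called.

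The surface glycoproteins included 4 of 5 genes that were lower in KO over both diets and none that passed. Clec14a differed by -0.30 (SE 0.13, limma adjusted p = 0.159), Podxl by -0.14 (SE 0.07), Emcn by -0.11 (SE 0.06) and Ecscr by -0.03 (SE 0.08). A further Clec14a probe set of nearly the same signal (mean 8.52 beside 8.65) differed by 0.00 (SE 0.10). Cd34, the sialomucin used to mark capillaries, was at 0.02 (SE 0.08). Of the 5 transcription factor genes, 4 were lower and none passed. Sox18, a SoxF factor of vessel development, had the lowest value, -0.49 (SE 0.20, limma adjusted p = 0.146), and uneven WT arrays: 8.42, 7.61 and 8.84 on the normal diet beside 7.55, 7.70 and 7.65 in KO. High-fat arrays gave 8.75, 8.05 and 8.39 in WT and 8.20, 8.38 and 7.64 in KO for Sox18, and the groups overlapped on both diets. Its relatives Sox17 and Sox7 were at -0.13 (SE 0.14) and 0.01 (SE 0.16), Erg at -0.05 (SE 0.07) and Tal1, which is also a blood cell factor, at -0.02 (SE 0.13). A further Erg probe set (mean 6.38 beside 6.56) differed by -0.24 (SE 0.13).

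**Figure D2:**
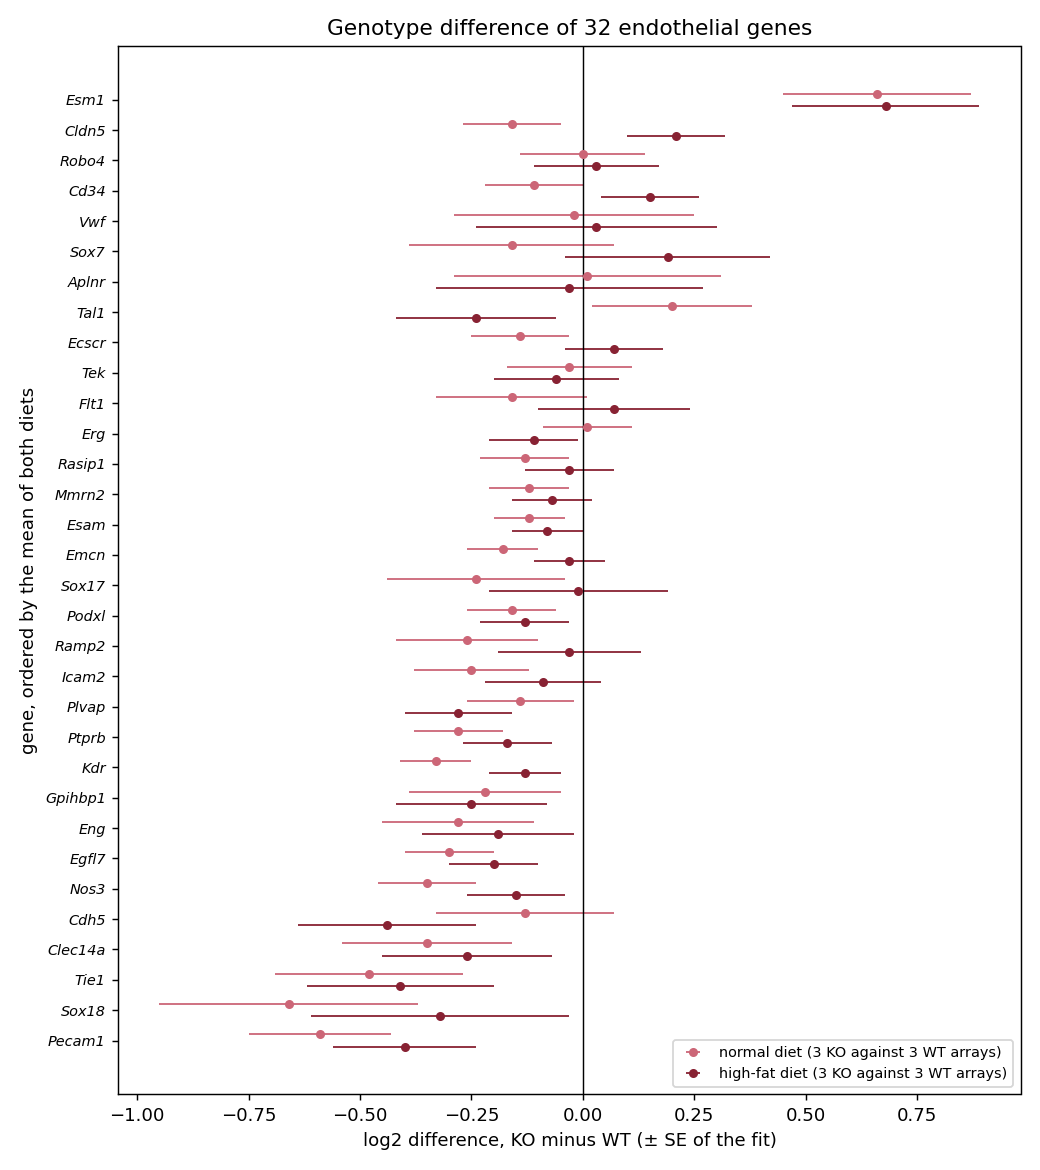
Log2 difference KO minus WT (horizontal axis, ± SE of the fit) of the 32 endothelial genes (vertical axis, ordered by the mean of both diets) on the normal and the high-fat diet, 3 KO against 3 WT arrays each. Esm1 stands alone at 0.66 and 0.68, and most other points lie left of 0, down to -0.66 for Sox18 on the normal diet.

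Taken by diet, the members showed no call on either. On the normal diet 5 were higher and 27 lower, with a median of -0.16 beside -0.05 for all genes (-0.26 without WT normal array 2), and limma called 0 of 32 where 0.84% of all genes were called. At an unadjusted p under 0.05 there were 9 members, where 22.1% of all genes passed; 1 was higher (8.79% of all genes) and 8 were lower (13.3%). The arrays of the 2 genotypes did not overlap for 11 members, beside 34.3% of all genes, with 1 higher (12% of all genes) and 10 lower (22.2%), so these counts were not far from the background. On the high-fat diet 8 were higher and 24 lower, with a median of -0.09 beside -0.03 (-0.14 without WT high-fat array 3 and -0.04 without KO high-fat array 3), and limma called 0 of 32 where 0.0263% of all genes were called. That background rested on 1 array: 4 genes were called with all arrays and 272 without WT high-fat array 2, with 0 members in both fits. Unadjusted, 3 members passed on the high-fat diet beside 13.4% of all genes, 1 higher (6.27%) and 2 lower (7.09%). The high-fat arrays of 4 members did not overlap beside 14.8% of all genes, 2 higher (7.31%) and 2 lower (7.52%). Averaged over diets, 10 members passed unadjusted beside 28.6% of all genes, 1 higher (10.8%) and 9 lower (17.8%). Esm1 was the member whose KO arrays were higher without overlap within both diets, and Pecam1 the member whose KO arrays were lower, where 7.43% of all genes kept 1 direction without overlap in both, 3.86% higher and 3.57% lower. The average shares its arrays with both single-diet comparisons.

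The overall scale bore on these counts. Centring each array on its median moved the median of all genes on the normal diet from -0.05 to 0.08 and that of the members from -0.16 to -0.03, so the members stayed about as far below the rest. On that scale 13 members were higher and 19 lower over both diets, with a median of -0.02 beside 0.06 for all genes. Of the members 2 were called, Esm1 higher (0.77) and Pecam1 lower (-0.40), where 1184 of all genes were called. Cyclic loess scaling called the same 3 members as the deposited scale, and 882 of all genes. It gave 9 higher and 23 lower members, with a median of -0.07 beside -0.01 for all genes.

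The mean of the 32 log2 values was 9.18, 8.88 and 9.21 on the WT arrays of the normal diet and 8.92, 8.90 and 8.93 on the KO arrays. With high-fat feeding it was 9.12, 9.01 and 8.99 in WT and 9.04, 8.95 and 8.89 in KO. WT normal array 2 lay below all KO arrays of its diet, and KO high-fat array 1 lay above WT arrays 2 and 3, so the list mean did not separate the genotypes on either diet. Lists of other cell types moved beside it. Acinar markers were higher in KO for 11 of 11 genes over both diets, with a median of 0.13, none past the test and 3 at an unadjusted p under 0.05, again beside 28.6% of all genes. Their mean level ranged from 12.42 to 12.72 in WT and 12.64 to 12.94 in KO on the normal diet, and from 12.26 to 12.77 in WT and 12.53 to 12.62 in KO on the high-fat diet. Pericyte and smooth muscle markers, the cells that wrap capillaries, were lower for 9 of 13 genes, with a median of -0.08 and a mean level of 8.70 to 8.87 in WT and 8.63 to 8.71 in KO on the normal diet, and of 8.59 to 8.69 and 8.58 to 8.75 on the high-fat diet. Against that, their defining receptor gene Pdgfrb rose by 0.34 (SE 0.08, limma adjusted p = 0.0299), a call that held in 4 of 12 fits without 1 array (limma adjusted p up to 0.0787). The mean over the probe sets of Pdgfrb gave 0.12 (limma adjusted p = 0.345), and a random block of same-numbered KO arrays gave a limma adjusted p of 0.0577, so neither kept the call. Fibroblast markers had a median of 0.06, lymphatic endothelial markers of 0.01 and beta cell markers of -0.05. The part of these cell types in the endothelial differences was not tested.

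**Figure D3:**
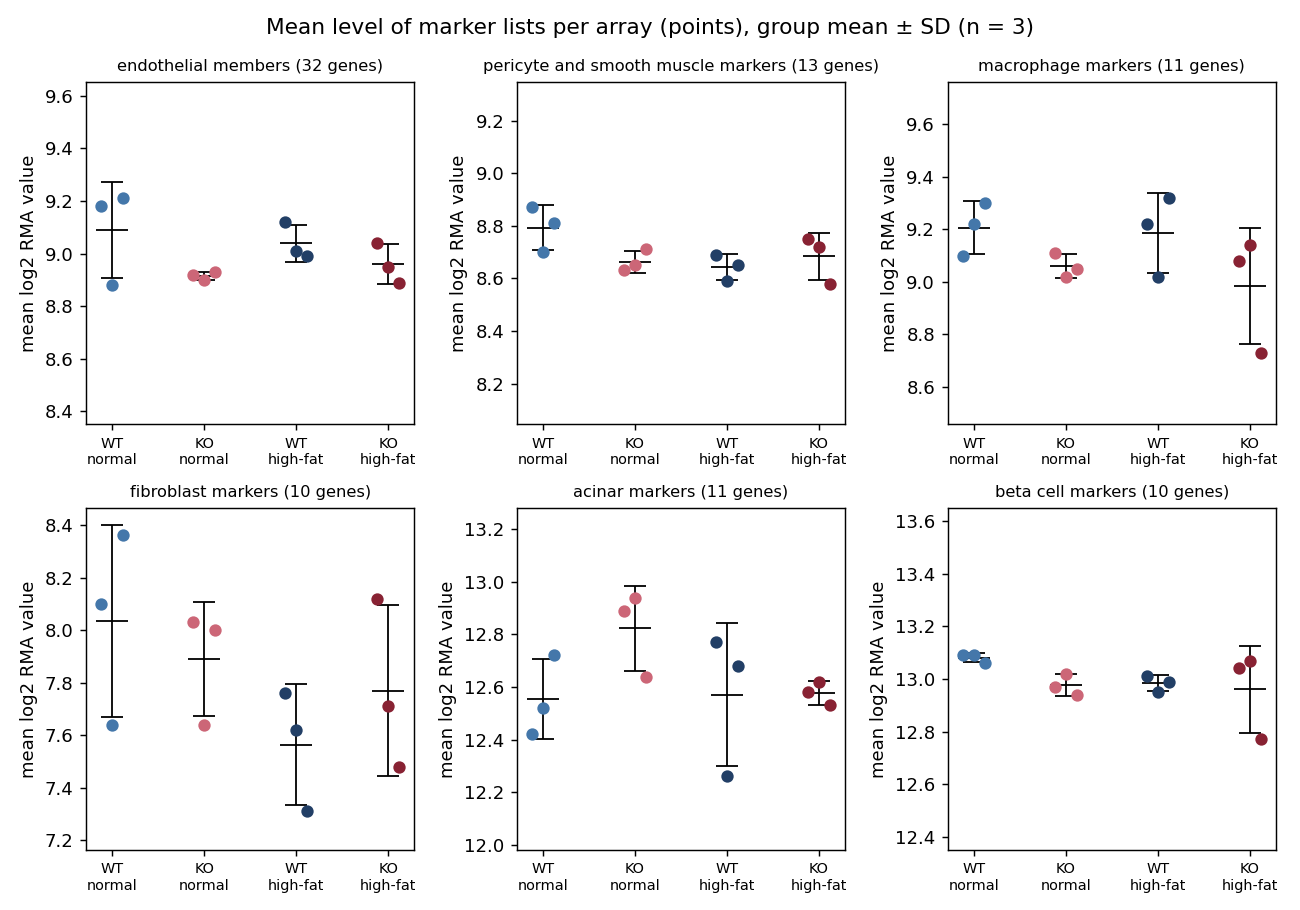
Mean log2 RMA value per array (vertical axis) of the endothelial genes and of 5 marker lists in the 4 groups (horizontal axis), all panels drawn over the same span of log2 units; points are arrays and bars the group mean ± SD (n = 3). The 3 KO points of the endothelial genes on the normal diet lie at 8.90 to 8.93, above WT array 2 at 8.88.

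The ligands, receptors and targets around these members were read from further lists. Of 20 angiogenic ligands tested, 1 rose and 0 fell over both diets by limma, where 6.32% of all genes were called, and 4 had an unadjusted p under 0.05, where 28.6% of all genes did. Vegfc, a growth factor for lymphatic and blood vessels that binds Flt4 and Kdr, gave 9.63, 9.67 and 9.67 in WT and 10.21, 10.03 and 10.41 in KO on the normal diet. The high-fat values were 9.45, 9.98 and 9.57 in WT and 10.01, 9.87 and 10.22 in KO. The normal-diet arrays stood well apart, and on the high-fat diet WT array 2 lay above KO array 2. Vegfc rose by 0.46 (SE 0.10, limma adjusted p = 0.0285), and by 0.50 without WT high-fat array 2 and KO high-fat array 3 (limma adjusted p = 0.0114). Its call was lost with the mean over its probe sets (0.35, limma adjusted p = 0.0542), with the array number as a block (limma adjusted p = 0.0508) and without WT normal arrays 1 or 3, KO normal array 3, WT high-fat arrays 1 or 3 and KO high-fat array 3 (0.0586 to 0.0759). Vegfa, the main ligand of Kdr and Flt1, differed by 0.23 (SE 0.10, limma adjusted p = 0.149) and Vegfb, a ligand of Flt1, by -0.21 (SE 0.09, limma adjusted p = 0.144).

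Of 27 further endothelial receptor and Notch genes, 1 fell and 0 rose by limma beside the 6.32% of all genes, and 11 had an unadjusted p under 0.05 beside the 28.6%. Dll4, the Notch ligand of tip cells, measured 7.67, 7.43 and 7.55 in WT and 7.20, 7.20 and 7.18 in KO on the normal diet. On the high-fat diet WT gave 7.55, 7.31 and 7.47 and KO 7.39, 7.30 and 7.06. The normal-diet groups were clearly apart, and KO array 1 crossed WT array 2 on the high-fat diet. Dll4 fell by 0.28 (SE 0.07, limma adjusted p = 0.0448), and its call was lost with median centring (-0.18, limma adjusted p = 0.0783) and with the array number as a block (limma adjusted p = 0.0585). A random block of same-numbered KO arrays gave a limma adjusted p of 0.0826, no filter 0.0515 and moderation with trend and robust 0.0658. The call held in 3 of 12 fits without 1 array, those that dropped array 2 of either WT group or array 1 of the high-fat KO group (limma adjusted p up to 0.114 in the others). Its receptor gene Notch1 differed by -0.22 (SE 0.06, limma adjusted p = 0.0667) and Nrp1, a co-receptor of Kdr, by 0.24 (SE 0.07, limma adjusted p = 0.0598). S1pr1, the sphingosine-1-phosphate receptor of endothelial cells, differed by -0.07 (SE 0.10, limma adjusted p = 0.673).

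**Figure D4:**
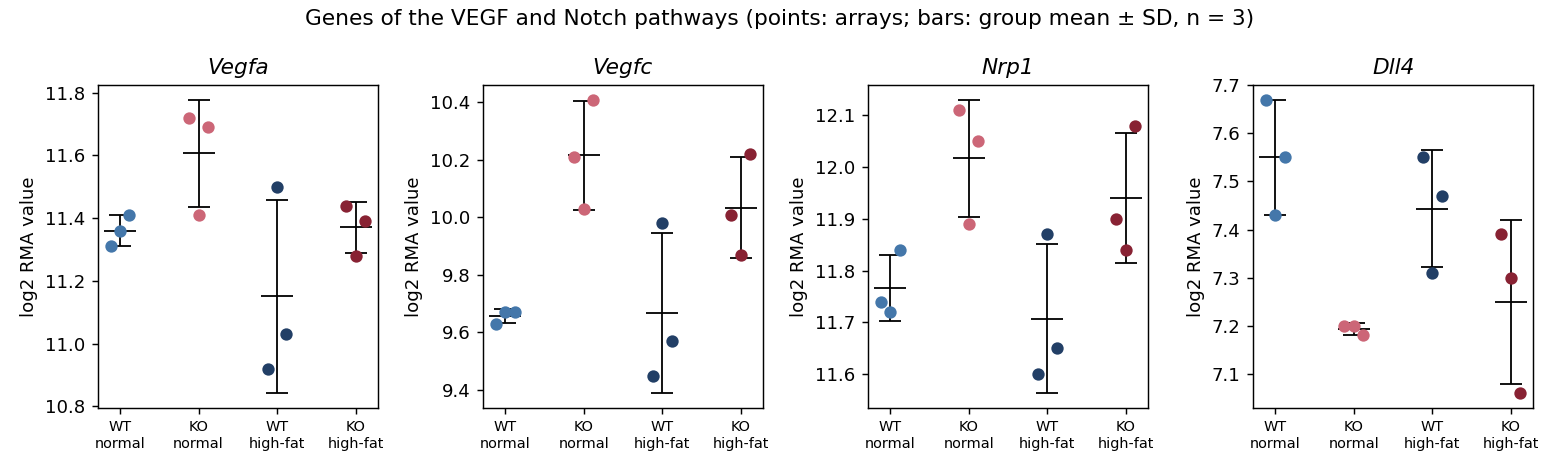
Log2 RMA values (vertical axis) of Vegfa, Vegfc, Nrp1 and Dll4 in the 4 groups (horizontal axis); points are arrays and bars the group mean ± SD (n = 3). KO points of Vegfc on the normal diet lie at 10.03 to 10.41 above WT points at 9.63 to 9.67, and those of Dll4 lie at 7.18 to 7.20 below WT points at 7.43 to 7.67.

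Of 15 genes of continuous capillaries and fatty acid handling, 2 fell and 0 rose by limma, where 6.32% of all genes were called. By any margin 5 were higher and 10 lower, and 7 had an unadjusted p under 0.05, where 28.6% of all genes did. The 2 called were Slc27a3, of the fatty acid transport protein family, by 0.50 (SE 0.11, limma adjusted p = 0.0276) and Aqp7, a channel for glycerol and water, by 0.27 (SE 0.07, limma adjusted p = 0.0482). Aqp7 lay near the filter at 5, with a mean of 5.56 and a value of 4.99 on KO high-fat array 3. Its difference was -0.14 on the normal diet (SE 0.10) and -0.41 on the high-fat diet (SE 0.10, limma adjusted p = 0.158). The Aqp7 call was lost with median centring (-0.18, limma adjusted p = 0.135) and with cyclic loess scaling (-0.30, limma adjusted p = 0.0555). It was also lost with the mean over the probe sets (-0.25, limma adjusted p = 0.377), the array number as a block (0.0867), same-numbered KO arrays as a random block (0.0837), no filter (0.0549), moderation with trend and robust (0.0622) and without WT high-fat array 2 and KO high-fat array 3 (0.0749). The Slc27a3 call was lost with the random block (limma adjusted p = 0.0533). Without 1 array the Slc27a3 call held in 7 of 12 fits (limma adjusted p up to 0.0732) and the Aqp7 call in 3 (up to 0.113). Beside the same 6.32% and 28.6% of all genes, none of 20 further endothelial transcription factor genes passed, with 3 at an unadjusted p under 0.05. None passed among 14 venous, activation and adhesion genes, with 4 unadjusted, and none among 16 basement membrane genes, with 1 unadjusted. The smallest adjusted p in these 3 lists were 0.076 for Hhex, 0.153 and 0.0776 for the basement membrane gene Nid1 (limma).

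Diet made no call among the members in either genotype. In WT, 12 members were higher and 20 lower on the high-fat diet, with a median of -0.07 beside -0.02 for all genes. This median rested on single arrays: it was 0.00 without WT normal array 3, with 16 members on either side, -0.13 without WT normal array 2 and -0.04 without WT high-fat array 3. In WT limma called 0 of 32 where 0.0788% of all genes were called, and 1 member passed unadjusted, lower, where 11.1% of all genes did and 7.22% were lower. That member was Cldn5, with 6.15, 6.17 and 6.51 on the normal diet and 5.90, 5.96 and 5.95 on the high-fat diet in WT. The KO arrays gave 5.99, 6.10 and 6.26 on the normal diet and 6.11, 6.21 and 6.12 on the high-fat diet. In WT all high-fat arrays were below all normal-diet arrays, and in KO they overlapped. The difference in WT was -0.34 (SE 0.11, limma adjusted p = 0.252) and in KO 0.03 (SE 0.11). The interaction for Cldn5, 0.37 (SE 0.15), was the only member value with an unadjusted p under 0.05 (limma adjusted p = 0.946), where 4.97% of all genes passed unadjusted, 2.99% above 0, and 0% after adjustment. The next by p, Cd34, had an interaction of 0.26 (SE 0.15, limma adjusted p = 0.990). Ramp2 and Kdr followed in WT by p: Ramp2 gave 11.04, 10.41 and 10.76 on the normal diet and 10.40, 10.25 and 10.53 on the high-fat diet, a difference of -0.34 (SE 0.16, limma adjusted p = 0.487). The WT arrays of Ramp2 overlapped between diets and those of Kdr, at -0.18 (SE 0.08, limma adjusted p = 0.482), did not. In the KO groups Ramp2 gave 10.25, 10.62 and 10.55 on the normal diet and 10.25, 10.60 and 10.25 on the high-fat diet, with overlap. The arrays of 3 members, all lower, did not overlap between the diets in WT, where 15.8% of all genes did not and 10.2% were lower.

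In KO, 21 members were higher and 11 lower on the high-fat diet, with a median of 0.03 beside -0.01 for all genes (-0.02 without KO high-fat array 1 and 0.06 without KO high-fat array 3). Limma called 0 of 32, where 0% of all genes were called, and 1 member passed unadjusted, higher, where 7.7% of all genes did and 3.57% were higher. This was Pecam1, whose KO arrays lay at 6.38 to 6.80 on the normal diet and 7.04 to 7.23 on the high-fat diet. The difference was 0.52 (SE 0.16, limma adjusted p = 0.485), and in WT it was 0.33 (SE 0.16, limma adjusted p = 0.493). Erg and Cd34 had the next smallest p in KO. Erg gave 6.53, 6.62 and 6.72 (WT) and 6.57, 6.55 and 6.76 (KO) on the normal diet. On the high-fat diet Erg gave 6.55, 6.40 and 6.71 (WT) and 6.47, 6.34 and 6.52 (KO). The KO high-fat arrays of Erg all lay below the KO arrays of the normal diet, by -0.19 on average (SE 0.10, limma adjusted p = 0.708), but the mean over its probe sets gave 0.10. Cd34 gave 9.68, 9.48 and 9.69 (WT) and 9.65, 9.44 and 9.41 (KO) on the normal diet. High-fat arrays of Cd34 gave 9.55, 9.69 and 9.32 (WT) and 9.71, 9.59 and 9.72 (KO). The KO arrays of Cd34 overlapped between diets, with a difference of 0.17 (SE 0.11, limma adjusted p = 0.802). The arrays of 2 members did not overlap between the diets in KO, 1 higher and 1 lower, where 13% of all genes did not, 6.32% higher and 6.71% lower. Over all members the interaction had a median of 0.10 beside 0.02 for all genes, with 0 called by limma. It was above 0 for 25 members and below for 7, where 53.8% of all genes were above. With median centring the members' median was 0.03 beside -0.05 for all genes, with 18 above and 14 below 0. The members thus stayed about as far above the rest. With cyclic loess scaling the median was 0.04 beside 0.00. Without 1 array it ranged from 0.03 to 0.19: leaving out WT normal array 1, 2 or 3 gave 0.03, 0.19 and 0.06, and leaving out array 1 or 3 of the high-fat KO group 0.05 and 0.16. The diet and genotype comparisons share arrays.

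Of the 32 genes, 20 had 1 probe set, among them Esm1, Pecam1 and Kdr, so these 3 calls each rest on a single probe set. The other 12 genes had 19 more probe sets, of which 15 were tested, each as its own row over 28689 probe sets. Over both diets 12 of the 15 had the sign of the gene's brightest probe set. Of the other 3, those of Mmrn2 had the opposite sign, at 0.15 and 0.05, and that of Clec14a was at 0.00. Among the 15, 2 were called, where 10.1% of all probe sets were. In the same test 4 of the 32 brightest probe sets were called, the 3 named above and that of Egfl7 (-0.25, SE 0.07, limma adjusted p = 0.0489), which had missed the threshold over genes. One of the 2 dimmer ones was a probe set of Flt1, with a mean of 7.44, which fell by 0.38 (SE 0.08, limma adjusted p = 0.0134), while the brightest Flt1 probe set differed by -0.04 (SE 0.12) and the remaining 2 by -0.03 (SE 0.08) and -0.15 (SE 0.06). The other was a probe set of Ptprb close to the lower end, with a mean of 4.71, which fell by 0.49 (SE 0.11, limma adjusted p = 0.022), beside -0.23 and -0.30 for the brighter 2. The transcripts that these probe sets read were not looked up here.

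Within groups the members did not vary as 1 block. Each value was taken as its deviation from the group mean, and correlated between genes over the 12 arrays. Of the 496 pairs of members, 371 (74.8%) had a Pearson r above 0, with a median of 0.29. Pairs of other genes were not computed, so whether these values are particular to the members was not tested. Esm1 was the member least like the others, with a median r of -0.24 to the other 31. Its deviations ran with those of Flt1 (r = 0.85, Spearman's rho = 0.85, adjusted p = 0.0837 by exact permutation within groups) and against those of Ramp2 (r = -0.84, rho = -0.85, exact permutation adjusted p = 0.0837), Plvap (r = -0.83, rho = -0.79, exact permutation adjusted p = 0.0957), Eng (r = -0.81) and Tie1 (r = -0.78). Without the 2 arrays whose Esm1 deviations lay farthest from their median, WT high-fat array 2 and KO normal array 1, r was 0.72 for Flt1, -0.83 for Ramp2 and -0.75 for Plvap. Adjusted over the 31 relations, 0 passed the threshold, and 6 had an unadjusted exact permutation p under 0.05.

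**Figure D5:**
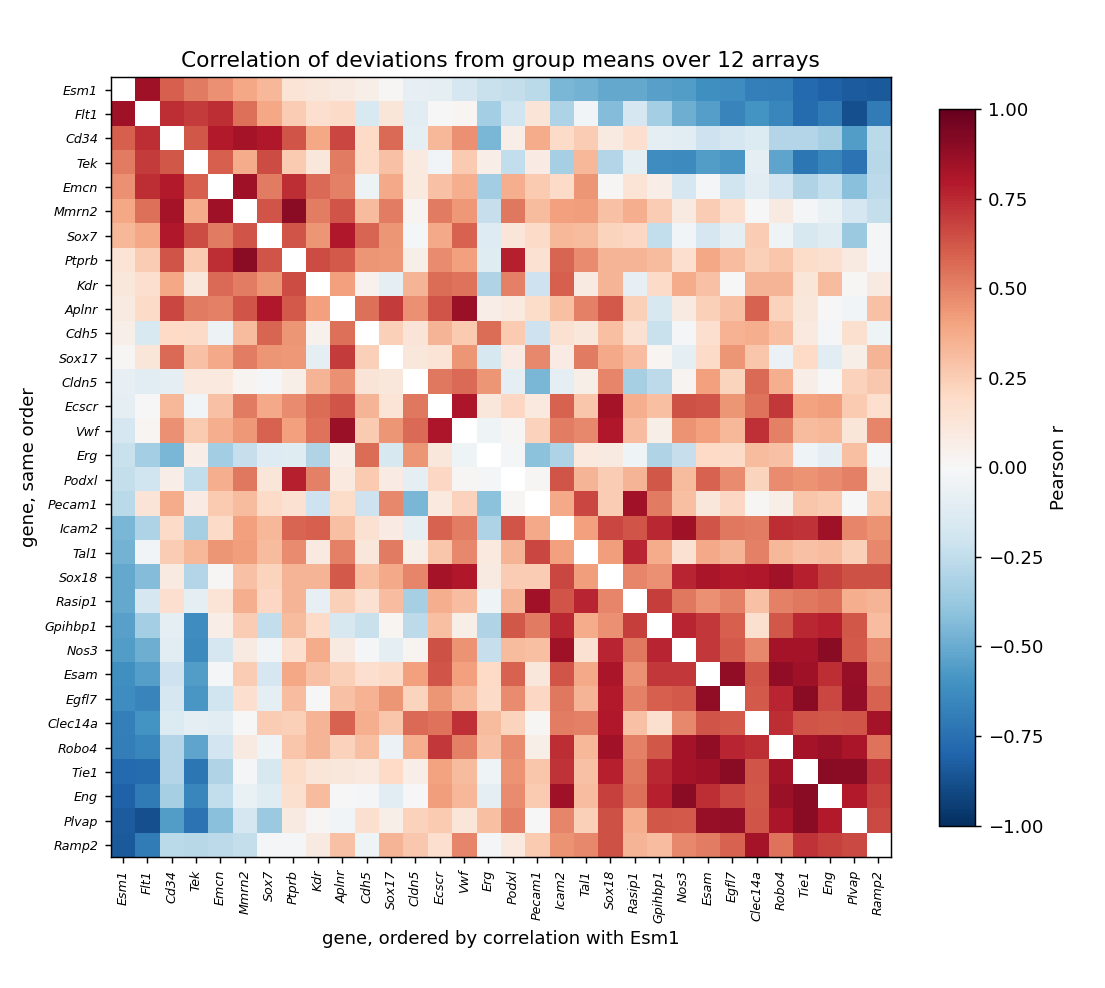
Pearson r between the deviations from group means of each pair of the 32 endothelial genes over 12 arrays, from blue (-1) to red (1); both axes list the genes in the order of their r with Esm1. Red fields fill the lower right, from Icam2 to Ramp2, while Esm1 and Flt1 in the upper left are red with each other (r = 0.85) and blue against Plvap and Ramp2.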

How the data were processed

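Log2 intensities from 12 Affymetrix mouse arrays (4 groups of 3) were used as deposited. Per the submitters' processing notes, the tools were RMA and Partek 6.6, with options not given in the sources read. RMA corrects background, equalises the distributions of the arrays and summarises probes, so a shift of most genes 1 way would be hidden and values near the lower end understate differences. The log2 scale of the authors' values was read from their range, 2.6 to 15.3. On arrays their number limits the precision; the median SE of a difference of 2 groups was 0.12.

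The platform annotation gave 1 gene symbol for 34945 of 45101 probe sets and several for 932; it did not list 9160, and 64 were control sets. Of those with 1 symbol, 34754 matched the reference gene table (GRCm38.p6) by Entrez identifier. Each of 18193 genes was read from its brightest probe set over 12 arrays, and 2956 not above 5 on at least 3 arrays were left out. All 12 arrays entered 1 fit in limma 3.58.1 (R 4.3.3), with a coefficient for each group (8 residual degrees of freedom), with 6 contrasts, two-sided moderated tests and Benjamini-Hochberg adjustment over all 15237 genes; limma was tested on simulated data. Python 3.11.15 with matplotlib 3.10.9 drew the figures. Promoters came from RefSeq's table.

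The members, lists and tests were chosen with earlier results of these data known. Members past the threshold, or otherwise the 3 with the smallest p per comparison, and Pecam1, Cdh5, Kdr, Plvap and Esm1 are given on every array; Tie1, Egfl7 and Sox18 were added after their values had been seen. From other lists, genes past the threshold or with small p are named.

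Same-numbered KO arrays deviated together across diets (r of 0.29, 0.38 and 0.14 for array numbers 1, 2 and 3), above the 0.1 set as the limit, and numbers of no other pair of groups did so. Values of that size occurred elsewhere with the opposite sign. WT and KO high-fat arrays gave -0.51 for number 2 and -0.35 for number 3. KO normal and WT high-fat arrays gave -0.37 for number 2. What an array number stands for is not in the labels. The alternatives were cyclic loess scaling, median centring, the mean over the probe sets of a gene, a filter at 6 or none, moderation with trend and robust, fits of the compared groups alone, replicate blocks and leaving out arrays.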

Additional observations from a re-analysis of the deposited data

How the results depend on the processing

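The direction of Esm1, Pecam1 and Kdr between genotypes over both diets held under all 21 alternatives run, and their place past the threshold did not. Many of the alternatives could not turn the direction. Other filters, moderation and blocks leave the difference as it is, and the mean over probe sets does so for genes with 1 probe set. For Esm1 and Pecam1, whose arrays did not overlap within either diet, leaving out arrays could not turn it either. The limma adjusted p ranged from 0.00986 to 0.0773 for Esm1, under the threshold in 11 of 21, from 0.024 to 0.0783 for Pecam1, in 12 of 21, and from 0.0223 to 0.222 for Kdr, in 6 of 21. The number of members called, 3, ranged from 0 to 6 when single arrays were left out. It was 0 when the array left out was WT normal 1, KO normal 2 or 3, WT high-fat 1 or 3, or KO high-fat 3, and 1 when it was WT normal 3 or KO normal 1. It was 5 without WT normal array 2 and 6 without WT high-fat array 2, where Egfl7, Nos3 and Tie1 joined the 3. Of all 15237 genes, 780 were called without WT normal array 2 and 2500 without WT high-fat array 2, beside 963 with all 12 arrays. The fits with 0 members called had 255 to 480 genes called, and those with 1 member had 324 and 662. With the replicate block 1 member was called, Pecam1 (limma adjusted p = 0.0286), with Esm1 at 0.0603 and Kdr at 0.0823, and 524 of all genes were called. With same-numbered KO arrays as a random block, added after the data were seen, 0 members and 352 of all genes were called. The limma adjusted p of Esm1, Pecam1 and Kdr were then 0.0628, 0.0657 and 0.0941. Leaving out both arrays that stand apart was also added after the data were seen. Without both, the members' median genotype difference was -0.10 over both diets (-0.04 for all genes) and -0.05 on the high-fat diet (-0.02). The median of the interaction was then 0.12 (0.02 for all genes). Vegfc was past the threshold in 6 of 12 fits without 1 array, Dll4 in 3, Slc27a3 in 7, Aqp7 in 3, Pdgfrb in 4 and Gp5 in 12.

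On the normal diet the median of the members was -0.03 with median centring in place of -0.16, and that of all genes 0.08 in place of -0.05. There moderation with trend and robust called 1 member, Kdr, in place of 0. Of all genes that moderation called 336 in place of 128. Erg in KO between diets turned from -0.19 to 0.10 with the mean of its probe sets. The cause of these shifts was not tested. Of the values for single genes under other settings, 468 kept their direction and side of the threshold, 96 lost a call, 1 gained one and 1 reversed.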
